A study of Mus musculus with 5 samples.

Results

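NF-kappaB is a family of transcription factors that carries signals from cytokine receptors and activating receptors to genes of inflammation and survival, and the RNA of 10 of its genes was followed here in mouse NK cells. The members were chosen by name: the subunit genes Nfkb1, Nfkb2, Rel and Relb, the IkappaB genes Nfkbia, Nfkbie, Nfkbid, Nfkbiz and Bcl3, and Tnfaip3, which encodes the inhibitor A20. All 10 were found among the 56691 gene IDs of the table, and all 10 had enough counts to be tested. The libraries were 3 labelled Fli1 KO and 2 labelled NTC. All 5 came from NK cells of mouse spleen that had been through CRISPR editing, directed at Fli1 (an ETS family transcription factor) in the first group and at the control called NTC in the second. The labels name no strain, age, guide, time after editing or culture. They do not say whether replicates are separate animals, so the p-values measure the spread between these samples, which may be technical.

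In resting cells NF-kappaB dimers are held in the cytoplasm by IkappaB proteins, which a signal through the IkappaB kinase (IKK) complex marks for destruction. Freed dimers enter the nucleus and switch on, among other genes, those of their own inhibitors, which makes NF-kappaB a textbook case of negative feedback. A second set of IkappaB proteins acts inside the nucleus as partners of DNA-bound dimers, and A20 stops the signal upstream by editing ubiquitin chains. In NK cells the pathway is known to answer interleukin 18 and activating receptors.

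Genes for inhibitors moved in opposite directions while the subunits did not pass the test. Nfkbiz and Tnfaip3 rose about 2-fold in Fli1 KO libraries, and Nfkbid and Nfkbia fell. Of the 10 members, 2 were called higher and 2 lower, where a call means an adjusted p under 0.05 (edgeR's quasi-likelihood test, Benjamini-Hochberg adjustment over all 30580 genes tested). The call of Nfkbia was close to the threshold, and DESeq2 and limma-voom did not make it. Over all tested genes 0.546% were called, 0.458% higher and 0.0883% lower. Among the 7666 genes expressed over 3 times background, where all 10 members lie, 2.0% were called. The members were chosen with earlier results of these data known, so their share of calls is not independent of these data. Background here is the count density per kb of exon that olfactory and vomeronasal receptor genes showed in these libraries. Groups that did not overlap were found for 3 members that lay higher and 3 that lay lower, against 25.6% of all tested genes and 34.0% of those over 3 times background, in either direction. Of the 7666 genes over 3 times background, 1991 lay higher and 615 lower without overlap. The median log2 fold change was -0.09 over the members, -0.02 over all tested genes and 0.11 over those over 3 times background. In bulk RNA, fewer cells that express a gene and less RNA per cell cannot be told apart.

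**Figure D1:**
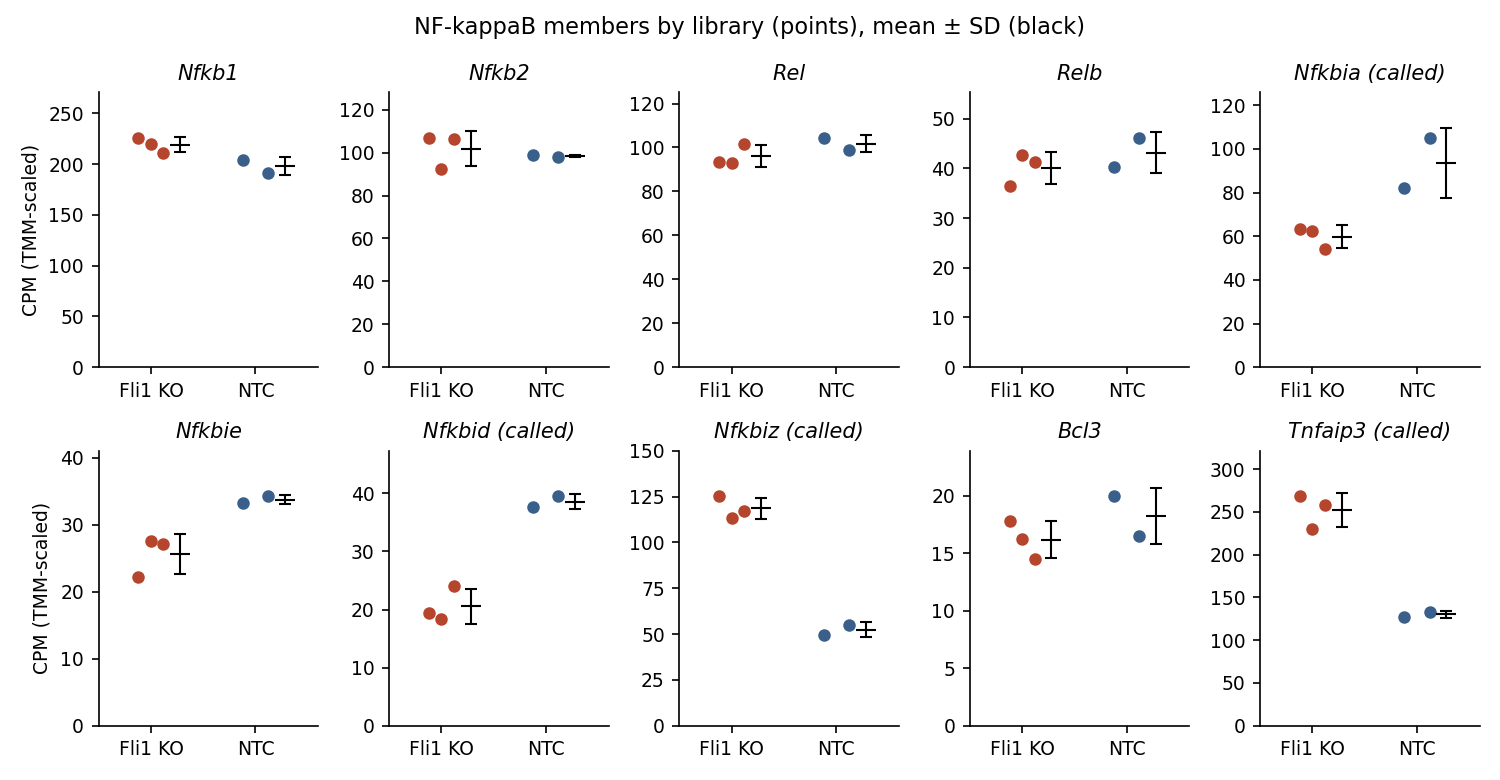
RNA level of each member in every library, in CPM (counts relative to the TMM-scaled library total), with Fli1 KO libraries (red, n = 3) left of NTC libraries (blue, n = 2) and the mean ± SD in black. Nfkbiz and Tnfaip3 lie higher in all 3 Fli1 KO libraries than in either NTC library, Nfkbia and Nfkbid lie lower, and the points of Nfkb2, Rel, Relb and Bcl3 overlap.

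Stretches upstream of RefSeq starts of 4 members are shown because genes that rose, fell and were not called all carry the letters of a kappaB site there. They are from RefSeq (GRCm38.p6), 5′ to 3′ on the gene's own strand, and end at the base before the start (for Rel 1 base earlier). The Nfkbid and Tnfaip3 stretches lie inside the gene spans given below (GENCODE M21), since these RefSeq starts lie further in. Only the longest run free of annotated untranslated bases is printed, which shortened the stretches of Tnfaip3 and Rel. Capitals mark matches to the kappaB consensus GGGRNNYYCC on either strand (R is A or G, Y is C or T, N is any base). Starts 1 and 3 of Nfkbid and start 2 of Tnfaip3 held no match in the 250 bases before them. The first 2 genes fell, Tnfaip3 rose and Rel was not called.
Nfkbia, chr12:55492648-55492897, minus strand: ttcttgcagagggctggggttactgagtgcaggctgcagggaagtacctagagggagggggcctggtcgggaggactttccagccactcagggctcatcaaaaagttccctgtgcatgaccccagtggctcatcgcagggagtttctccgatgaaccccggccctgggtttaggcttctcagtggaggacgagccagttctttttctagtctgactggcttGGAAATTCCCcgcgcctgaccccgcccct
Nfkbid, chr7:30422156-30422405, plus strand, start 2 of 3: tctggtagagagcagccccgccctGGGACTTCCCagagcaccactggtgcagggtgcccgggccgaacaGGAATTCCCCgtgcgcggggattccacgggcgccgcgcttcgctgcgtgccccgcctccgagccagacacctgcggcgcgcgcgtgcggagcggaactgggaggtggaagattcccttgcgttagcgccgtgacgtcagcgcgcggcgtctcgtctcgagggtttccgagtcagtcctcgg
Tnfaip3, chr10:19015411-19015547, minus strand, start 1 of 2: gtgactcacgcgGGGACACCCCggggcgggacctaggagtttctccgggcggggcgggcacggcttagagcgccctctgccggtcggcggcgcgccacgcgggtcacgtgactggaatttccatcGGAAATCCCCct
Rel, chr11:23770971-23771219, minus strand: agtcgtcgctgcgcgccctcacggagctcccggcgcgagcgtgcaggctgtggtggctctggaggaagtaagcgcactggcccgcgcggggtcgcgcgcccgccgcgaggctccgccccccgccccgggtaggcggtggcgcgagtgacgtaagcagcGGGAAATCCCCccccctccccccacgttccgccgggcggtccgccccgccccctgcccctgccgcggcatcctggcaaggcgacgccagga
The Nfkbia match begins 29 bases before the start, those of Nfkbid 226 and 181 bases before, those of Tnfaip3 125 and 12 bases before, and those of Rel, which overlap each other, 92 and 91 bases before.

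The sequence table held 7 of the members, with 12 starts in all. Entries were missing for Nfkb1, Relb and Nfkbiz. In the 250 bases before a start, 8 of the 12 windows held a kappaB match on either strand, and they belonged to 6 members (Nfkb2, Rel, Nfkbia, Nfkbie, Nfkbid and Tnfaip3). Of all 32851 such windows in the table, 7.25% did. The AP-1 letters TGANTCA were found for Tnfaip3, Nfkbie and Nfkb2 (6.75% of all windows), and the cyclic AMP response letters TGACGTCA for Nfkbid (1.55%). The ETS letters CCGGAAGT (2.88% of all windows) and CAGGAAGT (2.69%) were found on neither strand of the members' 12 windows. Only these exact ETS letters were searched, so similar ones are not covered. The Nfkbie window, for example, holds CCGGAAGC and the Rel window GAGGAAGT. These matches describe letters and do not show binding.

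Among the subunits, Nfkb1 encodes p105, the precursor of p50. Nfkb1 (ENSMUSG00000028163, GRCm38 chromosome 3, 135584655 to 135691547) stood at 226, 220 and 211 CPM (counts relative to the TMM-scaled library total) in Fli1 KO libraries and at 204 and 192 CPM in NTC libraries. The Fli1 KO values all lay above the NTC values, but by little (log2 fold change 0.15, SE 0.13, edgeR adjusted p = 0.803). The 95% interval allows a fold from 0.917 to 1.34. Nfkb2, which encodes p100, the precursor of p52 in the slower alternative pathway, stood at 107, 92.6 and 106 CPM in Fli1 KO libraries and at 99.0 and 98.2 CPM in NTC libraries. Its groups overlapped, and the interval of the fold ran from 0.854 to 1.25.

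Rel encodes c-Rel, the subunit best known from lymphocyte activation. It stood at 93.4, 92.7 and 102 CPM in Fli1 KO libraries and at 104 and 99.0 CPM in NTC libraries, with a fold between 0.782 and 1.14. Relb encodes the partner of p52 and stood at 36.5, 42.6 and 41.3 CPM in Fli1 KO libraries and at 40.2 and 46.2 CPM in NTC libraries (fold between 0.756 and 1.15). The groups overlapped for both. Of the 4 subunit genes 0 were called by edgeR, DESeq2 or limma-voom, and 0 had an unadjusted p under 0.05. Their log2 fold changes lay between -0.10 and 0.15. The sign for Nfkb2 changed with the processing, and that for Relb when NTC 2 was left out.

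Nfkbia encodes IkappaBalpha, the inhibitor that is degraded and made anew in each round of classical signalling. It fell to 63.1, 62.4 and 54.0 CPM in Fli1 KO libraries, against 82.2 and 105 CPM in NTC libraries (ENSMUSG00000021025, GRCm38 chromosome 12, 55489410 to 55492647). The groups did not overlap, and NTC 2 lay above NTC 1 by 1.28-fold. The means were 59.9 ± 5.08 CPM (SD, n = 3) in Fli1 KO and 93.6 ± 16.2 CPM (SD, n = 2) in NTC, a log2 fold change of -0.64 (SE 0.14, edgeR adjusted p = 0.0350). This call is close to the threshold. It ended without NTC 2 (-0.45, adjusted p = 0.439), without Fli1 KO 1 (-0.67, 0.245), Fli1 KO 2 (-0.65, 0.0670) or Fli1 KO 3 (-0.56, 0.523), and with median-of-ratios size factors (-0.62, 0.0575), DESeq2 (-0.62, 0.0630) or limma-voom (-0.63, 0.0647).

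Nfkbie encodes IkappaBepsilon, a cytoplasmic inhibitor known to prefer dimers with c-Rel or RelA. Its values were 22.2, 27.6 and 27.2 CPM in Fli1 KO libraries and 33.3 and 34.3 CPM in NTC libraries. All 3 Fli1 KO values lay below both NTC values, as they did for 13.7% of all tested genes and for 615 of the 7666 over 3 times background. The difference was not called (log2 fold change -0.39, SE 0.16, edgeR adjusted p = 0.422). Summed per kb of exon, Nfkbia and Nfkbie came to 46.5, 47.9 and 42.5 CPM per kb in Fli1 KO libraries and to 62.0 and 76.5 CPM per kb in NTC libraries.

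The nuclear IkappaB genes held the largest increase and the largest decrease among the members. Nfkbiz encodes IkappaBzeta, an inducible partner of p50 that is needed for a second wave of NF-kappaB target genes and, in NK cells, for the response to interleukins 12 and 18. It stood at 125, 113 and 117 CPM in Fli1 KO libraries and at 49.6 and 55.1 CPM in NTC libraries (ENSMUSG00000035356, GRCm38 chromosome 16, 55811375 to 55838899). Fli1 KO libraries averaged 118 ± 5.99 CPM (SD, n = 3) and NTC libraries 52.4 ± 3.93 CPM (SD, n = 2), a 2.26-fold difference. The log2 fold change was 1.18 (SE 0.14, edgeR adjusted p = 3.5e-05), and its 95% interval is a fold of 1.86 to 2.76. Each of the 14 alternative settings kept the call, with log2 fold changes from 1.05 to 1.26.

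Nfkbid encodes IkappaBNS, a nuclear partner of p50 needed for B and T cell functions. It fell to 19.4, 18.4 and 24.0 CPM in Fli1 KO libraries, against 37.6 and 39.5 CPM in NTC libraries (ENSMUSG00000036931, GRCm38 chromosome 7, 30421732 to 30428746). The groups lay far apart for their spread, with means of 20.6 ± 2.99 CPM (SD, n = 3) in Fli1 KO and 38.6 ± 1.32 CPM (SD, n = 2) in NTC. The 95% interval of the fold ran from 0.424 to 0.671. Its call (edgeR adjusted p = 0.00531) ended in 1 of 14 alternatives, without Fli1 KO 1 (log2 fold change -0.86, adjusted p = 0.111). Bcl3, a nuclear IkappaB protein that binds p50 and p52 and can activate transcription with them, stood at 17.8, 16.2 and 14.5 CPM in Fli1 KO libraries and at 19.9 and 16.5 CPM in NTC libraries. Its groups overlapped (log2 fold change -0.18, SE 0.18, edgeR adjusted p = 0.836).

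The make-up of nuclear IkappaB RNA differed between the groups more than its sum did. Per kb of exon, Nfkbiz held 61.8%, 61.1% and 59.2% of the RNA of the 3 nuclear IkappaB genes in Fli1 KO libraries and 29.1% and 31.9% in NTC libraries. Nfkbid held 20.5%, 21.2% and 26.0% in Fli1 KO libraries and 47.2% and 48.8% in NTC libraries. The summed level was 40.4, 37.0 and 39.4 CPM per kb in Fli1 KO libraries and 34.0 and 34.5 CPM per kb in NTC libraries. The ratio of Nfkbiz to Nfkbid per kb was 3.02, 2.89 and 2.28 in Fli1 KO libraries and 0.616 and 0.653 in NTC libraries. These shares restate the calls above and carry no test of their own.

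**Figure D2:**
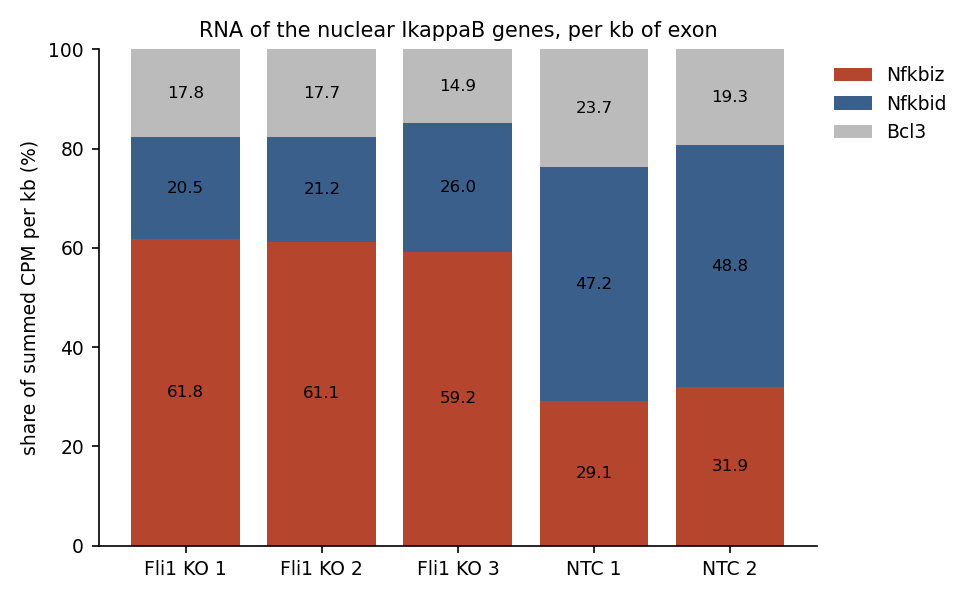
Share (%) of the summed CPM per kb of exon of Nfkbiz (red), Nfkbid (blue) and Bcl3 (grey) in each library, Fli1 KO libraries left of NTC libraries. Nfkbiz takes 59.2% to 61.8% in Fli1 KO libraries and 29.1% to 31.9% in NTC libraries.

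Tnfaip3 encodes A20, which ends signalling from the TNF receptor, Toll-like receptors and interleukin 1 receptors, and which MALT1 protease can cut. It rose to 268, 230 and 258 CPM in Fli1 KO libraries, against 127 and 133 CPM in NTC libraries (ENSMUSG00000019850, GRCm38 chromosome 10, 19000910 to 19015657). The lowest Fli1 KO library lay well above the highest NTC library. The level in Fli1 KO libraries, 252 ± 19.7 CPM (SD, n = 3), was 1.94 times that in NTC libraries, 130 ± 3.99 CPM (SD, n = 2). The log2 fold change was 0.95 (SE 0.14, edgeR adjusted p = 5.8e-04). All 14 alternatives kept the call, with log2 fold changes from 0.82 to 1.03. Per kb, Tnfaip3 RNA was 0.946, 0.821 and 1.06 times that of Nfkbia in Fli1 KO libraries and 0.345 and 0.282 times in NTC libraries.

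**Figure D3:**
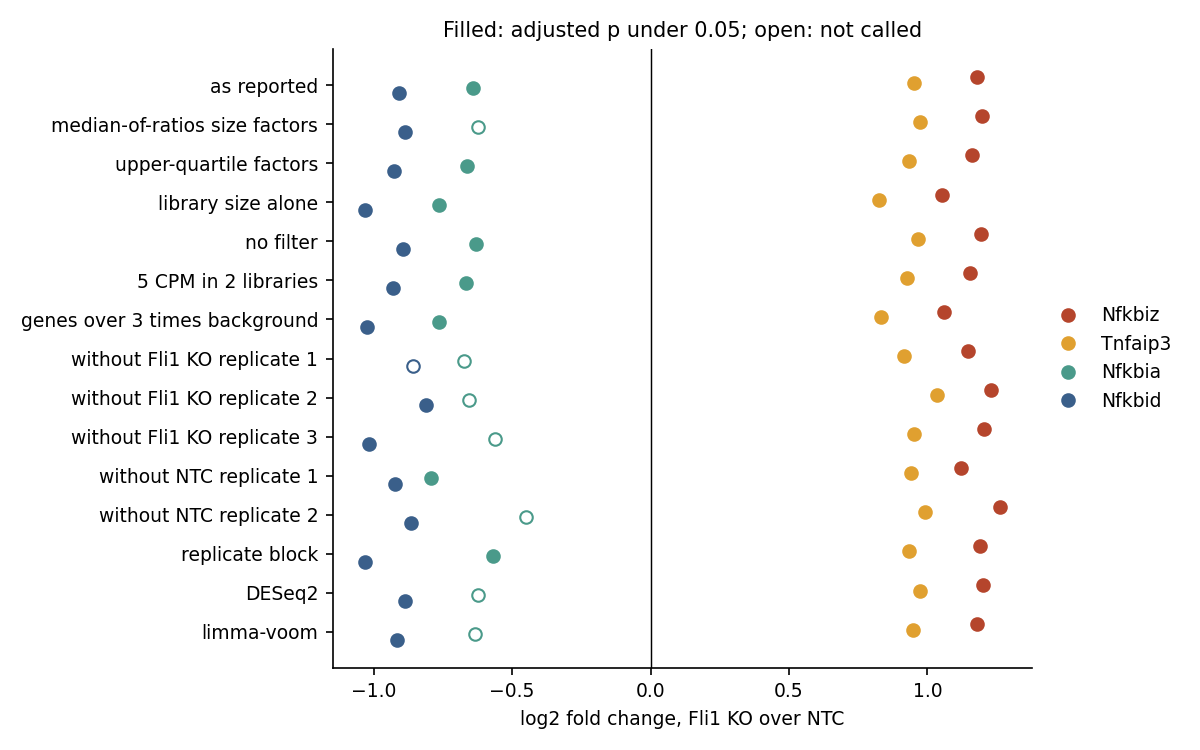
Log2 fold change, Fli1 KO over NTC, of Nfkbiz, Tnfaip3, Nfkbia and Nfkbid as reported and under each of the 14 alternatives, filled where the adjusted p is under 0.05 and open where it is not. Nfkbiz and Tnfaip3 stay filled throughout, Nfkbid has 1 open point and Nfkbia has 7.

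**Figure D4:**
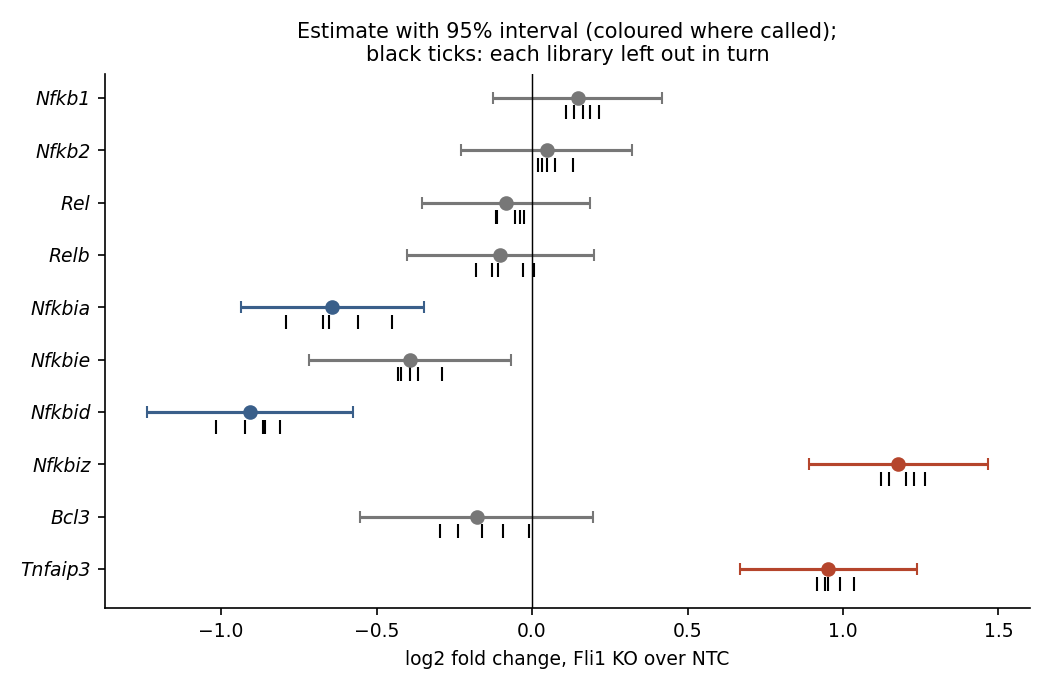
Log2 fold change of each member, Fli1 KO over NTC, with its 95% interval from the edgeR fit (red: called higher, blue: called lower, grey: not called). Black ticks give the estimate with each of the 5 libraries left out in turn. Those of Nfkbiz stay between 1.12 and 1.26 and those of Nfkbia spread from -0.79 to -0.45.

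Levels between genes are compared per kb of annotated exon, which takes capture probes to cover all exons alike. In Fli1 KO libraries the order was Nfkbia (37.2 CPM per kb), Tnfaip3 (34.9), Nfkbiz (23.6), Nfkb2 (22.2), Nfkb1 (18.2), Rel (12.9), Relb (10.3), Nfkbid (8.77), Nfkbie (8.43) and Bcl3 (6.53). The ranges of Nfkbia and Tnfaip3 overlapped, as did those of Nfkbiz and Nfkb2, of Relb and Nfkbid, and of Nfkbid and Nfkbie. In NTC libraries it was Nfkbia (58.2 CPM per kb), Nfkb2 (21.5), Tnfaip3 (18.0), Nfkbid (16.4), Nfkb1 (16.4), Rel (13.6), Relb (11.1), Nfkbie (11.1), Nfkbiz (10.4) and Bcl3 (7.36). Nfkbiz thus stood at place 3 of 10 in Fli1 KO and at place 9 in NTC, and Nfkbid at place 8 and place 4. Between NTC libraries the ranges overlapped for Nfkbid and Nfkb1, and among Relb, Nfkbie and Nfkbiz, each with the others.

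Within a group, the highest library exceeded the lowest by 1.07-fold (Nfkb1) to 1.31-fold (Nfkbid) in Fli1 KO and by 1.01-fold (Nfkb2) to 1.28-fold (Nfkbia) in NTC. Over all genes the NTC libraries differed from each other more than any pair of Fli1 KO libraries did, with a chi-square per gene of 10.7 between NTC libraries and of 2.19 to 3.50 between Fli1 KO libraries. Counts of the members ran from 72 to 1329 per library, and their mean levels from 4.49 (Bcl3) to 30.8 (Nfkbia) times background. Exons of Nfkb2 share 299 bases with Psd and 531 with the noncoding AC114539.1 on the other strand, and those of Bcl3 share 161 with the antisense Gm16175. The counter's strand setting is not given, so reads there cannot be told apart. The nearest protein-coding neighbours of the 4 called members were not called: Psma6 and Aldoart2 beside Nfkbia, Hcst and Aplp1 beside Nfkbid, Zpld1 and Nxpe3 beside Nfkbiz, and Perp and Olig3 beside Tnfaip3 (log2 fold changes from -0.55 to 0.40).

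The rest of the pathway was read in the same fit. Over all 30580 tested genes 2735 had an unadjusted p under 0.05, as did 1395 of the 7666 over 3 times background. Rela encodes p65, the main activating subunit, and stood at 78.7, 77.8 and 78.2 CPM in Fli1 KO libraries and at 62.1 and 52.2 CPM in NTC libraries. It was not called (log2 fold change 0.45, SE 0.14, edgeR adjusted p = 0.218), although it was without NTC 1 (0.60, 0.0402). Nfkbib, which encodes IkappaBbeta, stood at 34.9 ± 5.05 CPM (SD, n = 3) in Fli1 KO and 29.5 ± 4.44 CPM (SD, n = 2) in NTC, and its groups overlapped. Of the 12 genes for Rela, Nfkbib, IKK and related kinases, 0 were called by edgeR, DESeq2 or limma-voom, and 2 had an unadjusted p under 0.05, Rela and the kinase adaptor gene Tab1 (-0.33, edgeR adjusted p = 0.554).

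The 21 genes for adaptors and ubiquitin ligases between receptors and IKK had a median log2 fold change of 0.07. All 21 lay over 3 times background, where the median over all genes was 0.11. Among the 21, 1 was called higher and 0 lower. This was Malt1, which encodes a protease and scaffold protein, at 595, 550 and 597 CPM in Fli1 KO libraries and 388 and 347 CPM in NTC libraries. The groups did not overlap (log2 fold change 0.66, SE 0.14, edgeR adjusted p = 0.0262). The call ended without Fli1 KO 1 (0.65, 0.236), Fli1 KO 3 (0.66, 0.399) or NTC 2 (0.59, 0.218), and with library size alone (0.53, 0.103). Of 14 further inhibitors, among them the deubiquitinase genes Cyld and Otud7b, 0 were called by the same tools and 0 had an unadjusted p under 0.05. Cyld had a log2 fold change of 0.23 and Otud7b of -0.25. The increase of Tnfaip3 was thus not matched by a call in the other listed brakes upstream of IKK, though a difference between them was not tested.

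Of 20 receptor genes 0 were called by edgeR, DESeq2 or limma-voom and 3 had an unadjusted p under 0.05, but only 7 lay over 3 times background. Tnfrsf1a, the main TNF receptor gene, stood at 44.2, 35.8 and 37.3 CPM in Fli1 KO libraries and at 54.4 and 52.0 CPM in NTC libraries (log2 fold change -0.45, edgeR adjusted p = 0.253), and was called when only genes over 3 times background were fitted (-0.56, 0.0298). Tnfrsf25, a death receptor gene at 2.18 times background, had 1 library that stood apart, NTC 2 (4.44, 6.24 and 4.03 CPM in Fli1 KO, 5.72 and 15.2 CPM in NTC). Its log2 fold change was -1.04 (edgeR adjusted p = 0.373), or -1.60 (6.2e-06) without NTC 1 and -0.20 (0.938) without NTC 2. Tnfrsf9, the gene of the costimulatory receptor 4-1BB, is named as the remaining gene of these 3 and went the other way, at 676, 416 and 565 CPM in Fli1 KO libraries and 386 and 207 CPM in NTC libraries (log2 fold change 0.90, edgeR adjusted p = 0.431). Of 10 ligand genes 1 was called lower and 0 higher. A negative log2 fold change was found for 9 of them and for 16027 of all 30580 tested genes. An unadjusted edgeR p under 0.05 was found for 4 ligand genes, all lower. Only 3 ligand genes lay over 3 times background. All 3 were negative, as were 2309 of the 7666 genes at that level. The called gene was Tnfsf14, which encodes LIGHT, a ligand of the alternative pathway. It stood at 8.47, 10.9 and 12.9 CPM in Fli1 KO libraries and at 22.2 and 21.3 CPM in NTC libraries (log2 fold change -1.02, edgeR adjusted p = 0.0103), and was not called without Fli1 KO 1 (-0.87, 0.181).

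Of 32 textbook NF-kappaB targets listed, 31 were tested, and 2 were called higher and 1 lower. The log2 fold changes were positive for 16 and negative for 15, with a median of 0.01. Of the 15 targets over 3 times background, 12 were positive and 3 negative, while 5357 of the 7666 genes at that level were positive and 2309 negative. The median log2 fold change was 0.25 over those 15 targets and 0.11 over those 7666 genes. At an unadjusted p under 0.05, 1599 of all 30580 tested genes were higher and 1136 lower, and 1162 and 233 of those 7666. Of the targets, 7 were higher and 1 lower at that p. The survival factor gene Ier3 rose most, to 57.6 ± 11.5 CPM (SD, n = 3) in Fli1 KO, against 12.5 ± 2.91 CPM (SD, n = 2) in NTC. Its log2 fold change of 2.19 (SE 0.20, edgeR adjusted p = 7.7e-07) kept its call in all 14 alternatives. Myc, the growth regulator, had a log2 fold change of 0.73 (edgeR adjusted p = 0.0225), which was not called without Fli1 KO 1 (0.70, 0.260), Fli1 KO 3 (0.66, 0.370) or NTC 2 (0.59, 0.191), or with library size alone (0.59, 0.0607). Irf4, a transcription factor of lymphocyte activation, fell (log2 fold change -0.90, edgeR adjusted p = 0.00594) to 17.8, 23.4 and 24.2 CPM in Fli1 KO libraries, against 41.6 and 39.7 CPM in NTC libraries. Its call ended without Fli1 KO 1 (-0.77, 0.117) or Fli1 KO 3 (-0.97, 0.0502). The chemokine genes Ccl3, Ccl4 and Ccl5, named here after their values were seen, had log2 fold changes of 0.49, 0.64 and 0.47 that were not called (edgeR adjusted p = 0.329, 0.0743 and 0.187).

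**Figure D5:**
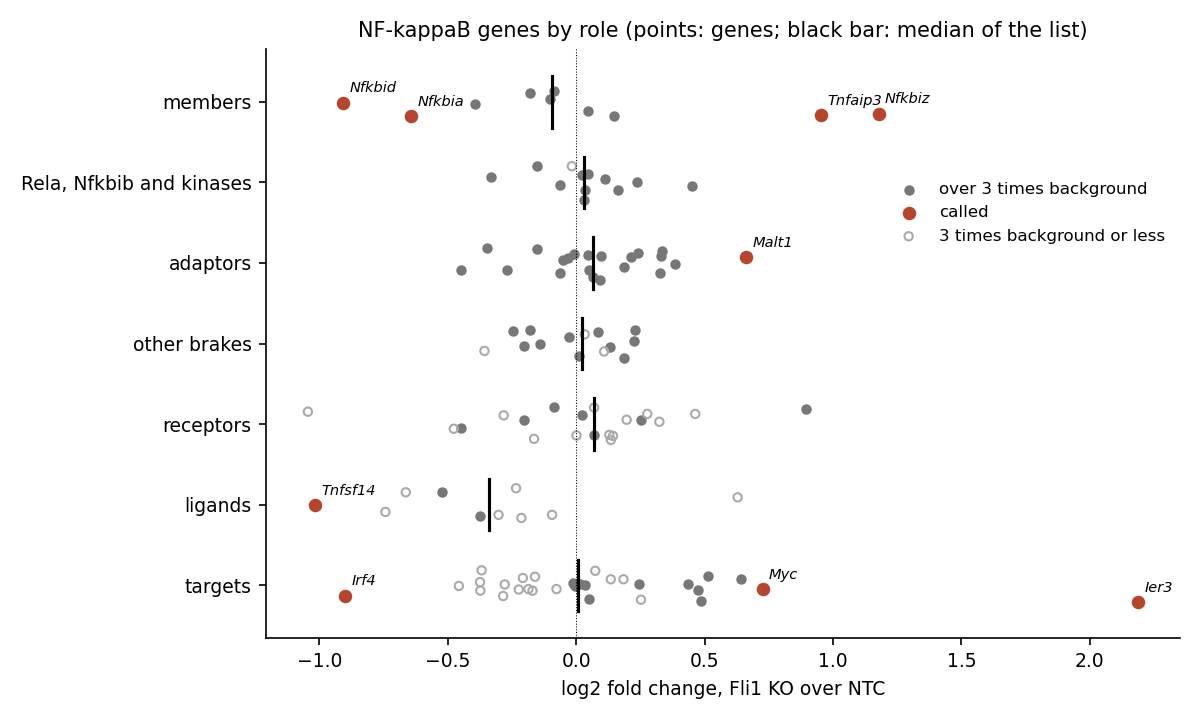
Log2 fold change, Fli1 KO over NTC, of each tested gene by role, with the median of each list as a black bar. Red points are called, grey points lie over 3 times background and open points at or under it. Called genes appear on both sides of 0, with Ier3 farthest to the right at 2.19.

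Genes whose level over the 5 libraries ran most alike to that of each called member were sought among the 14517 named genes that averaged 5 CPM or more. For Nfkbiz these genes were Tmx4, Ubald1 and Egr2 (Pearson r of 0.998 for each). For Tnfaip3 they were Pdlim5, Srsf5 and Otud5 (0.999 or above), for Nfkbia Gata3, Ppp1r13b and Slfn2 (0.996 to 0.998), and for Nfkbid Rhobtb2, Parp14 and Snx29 (0.996 to 0.998). These are the highest values among 14517 genes over only 5 libraries in 2 groups, and they are given as a description. Ubald1, Egr2 and Slfn2 were called themselves and the others were not. Among those not called were Pdlim5 (log2 fold change 0.18) and Gata3 (-0.20), so a high r does not mean a change of like size.

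Over the whole table the libraries held 4718390 to 5643791 counts. Fli1 RNA was counted over the whole gene, which cannot show small insertions or deletions, and stood at 390, 320 and 361 CPM in Fli1 KO libraries and at 322 and 279 CPM in NTC libraries (edgeR adjusted p = 0.641). Calls numbered 140 higher and 27 lower, or 92 and 71 when libraries were scaled by their totals only. That scaling moved the median log2 fold change of all genes to -0.14, and under it the directions of the 4 called members held. All 11 NK cell markers lay over 3 times background, while 0 of the 31 markers of T, B, myeloid and erythroid or platelet cells did. The NK cell markers summed to 9153 to 13591 CPM in Fli1 KO and to 6614 to 9778 CPM in NTC, and these ranges overlapped. Summed T cell markers came to 58.2 to 64.4 CPM in Fli1 KO and 57.7 to 61.2 CPM in NTC, B cell markers to 53.0 to 58.1 and 54.3 to 66.6, myeloid markers to 42.1 to 43.3 and 44.5 to 46.6, and erythroid and platelet markers to 11.3 to 14.1 and 16.3 to 26.9, with Hba-a1 at 0 in NTC. The myeloid sums and the erythroid and platelet sums did not overlap between the groups and lay lower in Fli1 KO. Of the markers tested, none was called.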

How the data were processed

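Per the labels' protocols, total RNA was column-purified and libraries were made from 10 ng with an enrichment kit. Per the submitters' processing notes, FastQC 0.12.0, Trimmomatic 0.39, STAR 2.7.11 and the build mm10 were used. No source used here gives the counter, strand setting or annotation release. The table deposited by the authors has raw counts per Ensembl gene ID, with 0 columns beyond the 5 libraries. Groups came from the labels.

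Symbols came from the supplied gene name table, which matched 52073 of 56691 IDs. Positions and exon lengths came from GENCODE M21 (GRCm38, also called mm10). Genes were kept with filterByExpr (30580), scaled with TMM and tested with edgeR 4.0.16 (R 4.3.3, robust quasi-likelihood, common biological coefficient of variation 0.120). A gene is called at an adjusted p under 0.05. CPM use TMM-scaled library totals. SEs came from the coefficient and F statistic, and 95% intervals from the t distribution with the fit's degrees of freedom. Background is the 1.55 CPM per kb of exon over 1957 olfactory or vomeronasal receptor genes outside X and Y. Likeness is Pearson's r of log2(CPM + 1).

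Alternatives were other size factors, filters, each library left out, DESeq2 1.42.0, limma-voom (limma 3.58.1) and a block for the replicate number. The fit was tested on simulated data. The members and lists were chosen with earlier results of these data known. Named are all members, Fli1, Rela, Nfkbib, up to 6 called genes per pathway list (or the 2 with the smallest p), exon-overlapping genes, neighbours of called members and the 3 genes most alike to each.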

Additional observations from a re-analysis of the deposited data

How the results depend on the processing

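Of the 10 members, Nfkbiz and Tnfaip3 were called higher in all 14 alternatives. The members called lower numbered 1 with median-of-ratios size factors, DESeq2 and limma-voom, and 0 to 2 with each library left out. The sign of Nfkb2 turned with library size alone (-0.082) and among genes over 3 times background (-0.073). That of Relb turned without NTC 2, with values from -0.18 to 0.0054 over the libraries left out. The cause was not tested. Over all genes, calls numbered 92 higher and 71 lower with library size alone, 239 and 56 with no filter, and 62 lower among genes over 3 times background. With each library left out they ran from 46 to 703 higher and from 3 to 174 lower, the highest without NTC 1 and the lowest without Fli1 KO 1. A lone NTC library is taken to vary like Fli1 KO libraries, so such counts do not measure strength.

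With each library left out, calls ran from 0 to 1 higher for Rela, Nfkbib and kinases, from 0 to 1 higher for adaptors, from 0 to 1 higher and 0 to 1 lower for receptors, from 0 to 3 lower for ligands, and from 1 to 4 higher and 0 to 1 lower for targets. Library size alone gave 0 adaptors higher and 1 target higher. Among genes over 3 times background 1 adaptor and 1 receptor were lower.

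Libraries that share a replicate number had deviations that correlated by 0.069 (replicate 1) and 0.143 (replicate 2), and with 2 such pairs the numbers are not shown to pair samples. Replicate 3 exists only in Fli1 KO, so with the replicate number as a block the contrast rests on replicates 1 and 2. This leaves little from which to estimate the spread. With the block, 728 genes were called higher and 193 lower. The block gave 1 gene higher for Rela, Nfkbib and kinases (Rela, 0.45, adjusted p = 0.00987), 2 higher and 1 lower for adaptors, 1 higher and 1 lower for receptors (Tnfrsf25 lower, -0.93, adjusted p = 0.0373), 3 lower for ligands and 6 higher for targets, and Nfkbiz, Tnfaip3, Nfkbid and Nfkbia kept their calls.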
